A study of Saccharomyces cerevisiae and Schizosaccharomyces pombe with 10 samples.

Results

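The 6 small nucleolar RNAs (snoRNAs) described here lie inside introns of protein-coding genes of the fission yeast Schizosaccharomyces pombe. They were taken by name and position from the RefSeq annotation: snR191 in nog2, snoR39b in rpl701, snR48 in rps3, snoR47 in fta3, snoU24b in cpc2 and snoU24 in spt20. They are 6 of the 13 snoRNA genes that the annotation places on the same strand inside introns of protein-coding genes, and 6 of 67 snoRNA genes in all, counting snR48, which the annotation classes as an snRNA. The reads come from 1 sample of strain L972, wild type and of mating type h-, grown at 30 °C to exponential phase in YES, a rich medium, with glucose. Its nascent RNA was ligated to an adaptor at its 3′ end, copied into cDNA and sequenced as long reads. The other samples of the series are from budding yeast and were not analysed here.

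snoRNAs are guides that bring modifying enzymes to ribosomal RNA. Those of the box C/D class direct methylation of the ribose, and those of the box H/ACA class direct pseudouridine formation. When a snoRNA sits in an intron, the intron is normally spliced out as a lariat, a loop closed at the branch point adenosine, and opened by the debranching enzyme. Exonucleases then trim the linear intron from both sides up to the ends that the snoRNA's proteins protect. A molecule can also be cut out of the unspliced transcript. The read ends can thus show trimmed snoRNA, opened intron or unspliced precursor, molecule by molecule.

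The host genes have varied roles. nog2 encodes a GTPase of large ribosomal subunit assembly, and rpl701 and rps3 encode proteins of the large and small ribosomal subunit. cpc2 encodes the ribosome-bound protein known as RACK1 in animals. fta3 encodes a kinetochore protein, and spt20 a subunit of the SAGA transcription coactivator. In budding yeast, too, snR191 lies in an intron of NOG2, and U24 in an intron of ASC1, the counterpart of cpc2.

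The sequences of the most common form of each snoRNA are shown first, because the ends of that form and the short motifs near them are what the reads measure. Each was read from RefSeq assembly ASM294v3 between the commonest 5′ end and the commonest 3′ end of the reads. For the 5 RNAs with box C/D letters, capitals mark TGATG, the core of box C, near the 5′ end and CTGA, box D, near the 3′ end. For snR191 they mark the last ACA, the motif that closes box H/ACA RNAs.
snR191: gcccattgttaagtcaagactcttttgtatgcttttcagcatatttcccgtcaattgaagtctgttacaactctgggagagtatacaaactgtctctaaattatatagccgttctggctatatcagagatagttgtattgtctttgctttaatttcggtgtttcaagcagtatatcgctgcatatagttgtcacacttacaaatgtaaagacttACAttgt
snoR39b: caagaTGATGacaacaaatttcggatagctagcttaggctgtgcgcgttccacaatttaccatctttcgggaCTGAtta
snR48: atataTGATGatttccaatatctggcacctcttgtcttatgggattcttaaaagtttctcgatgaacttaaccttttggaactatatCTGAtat
snoR47: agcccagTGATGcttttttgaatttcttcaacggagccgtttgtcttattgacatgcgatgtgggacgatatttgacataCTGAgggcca
snoU24b: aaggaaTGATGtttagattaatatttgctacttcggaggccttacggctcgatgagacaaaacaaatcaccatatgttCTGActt
snoU24: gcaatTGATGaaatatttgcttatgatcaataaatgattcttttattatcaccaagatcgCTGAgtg

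These forms lie, from 1 on each chromosome, at I:2734995-2735215 on the minus strand (snR191, in the only intron of nog2), II:1791742-1791820 minus (snoR39b, only intron of rpl701), II:4239151-4239244 minus (snR48, only intron of rps3), II:3654329-3654418 minus (snoR47, only intron of fta3), I:2440335-2440419 plus (snoU24b, intron 2 of 2 in cpc2) and I:5369619-5369685 minus (snoU24, intron 4 of 4 in spt20). Each sequence occurs exactly once in the assembly, so their reads could be placed. The forms are 221 nt long for snR191, 94 nt for snR48, 90 nt for snoR47, 85 nt for snoU24b, 79 nt for snoR39b and 67 nt for snoU24.

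The 6 snoRNAs held 898 same-strand reads, 5.57% of the 16126 alignments in the library (95% Poisson interval of the count 840 to 959). snR191 had 281 reads (249 to 316), snoR39b 161 (137 to 188), snR48 134 (112 to 159), snoR47 128 (107 to 152), snoU24b 117 (96.8 to 140) and snoU24 77 (60.8 to 96.2). snR191 stood above the others. The neighbours snoR39b and snR48, snR48 and snoR47, and snoR47 and snoU24b had overlapping intervals, while the intervals of snoU24b and snoU24 did not overlap. Among all 67 snoRNA genes snR191 ranked 11th by reads and snoU24 40th, with the other 4 between them. The 67 include 6 genes that hold another snoRNA gene, so some reads count for more than 1 gene in this ranking. Among them SPNCRNA.723 ranked above snR191. No read lay on the opposite strand of any of the 6. There is 1 sample and no replicate, so intervals cover counting error only and no test between conditions is possible. The 898 reads were 179 distinct alignments. By snoRNA these were 73 in snR191, 31 in snR48, 24 in snoR47, 23 in snoR39b, 15 in snoU24b and 13 in snoU24. The intervals take each read as a separate molecule. The order below snR191 and the separation of snoU24b from snoU24 may thus depend on repeated alignments. In the whole file 6246 of 16126 were distinct (38.7%), and PCR copies cannot be told apart from separate molecules with the same ends.

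The sample was sequenced in 4 movies, 2 earlier and 2 later, which are runs of the same material and not replicates. Per 1000 alignments of a movie, snR191 had 18.3 and 17.2 reads in the earlier movies and 17.7 and 16.5 in the later ones. snR48 had 7.53 and 12.3 in the earlier movies and 7.48 and 6.73 in the later ones, the widest spread of the 6. snR191 was the highest of the 6 in every movie. The plot of reads by movie shows that the order of the other 5 changed from movie to movie.

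**Figure D1:**
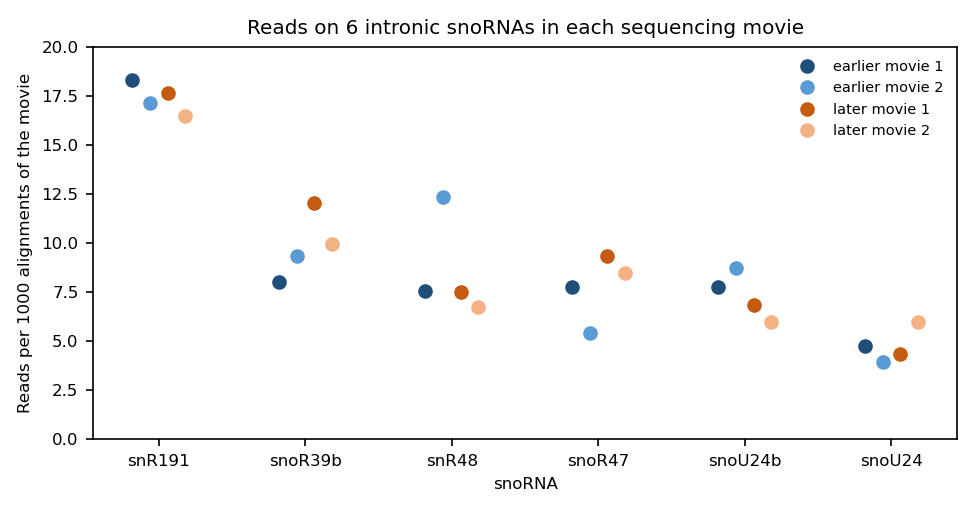
Reads on each snoRNA per 1000 alignments of a sequencing movie (vertical axis), 1 point per movie, for the 6 snoRNAs (horizontal axis). snR191 lies between 16.5 and 18.3 in all 4 movies, and the other 5 lie between 3.91 and 12.3.

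The commonest read ends did not always match the annotated snoRNA. The annotated snR191 is 128 nt long (I:2735048-2735175), whereas its commonest 5′ end lay 40 nt upstream of that and its commonest 3′ end 53 nt downstream. For snR48 (annotated II:4239161-4239235) the reads began 9 nt before and ended 10 nt after the annotated ends. For snoU24 (annotated I:5369640-5369686, 47 nt) they began 1 nt inside and ended 21 nt beyond it. In these 3 RNAs the molecules were thus longer than the annotated gene.

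The other 3 stayed close to it. snoR39b (annotated II:1791743-1791820) began at the annotated base and ended 1 nt past it. snoU24b (I:2440336-2440418) began 1 nt before and ended 1 nt after, and snoR47 (II:3654333-3654416) began 2 nt before and ended 4 nt after. These commonest ends were the same in the earlier and the later movies, except that the commonest 5′ end of snoU24b moved by 1 nt in the later ones.

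**Figure D2:**
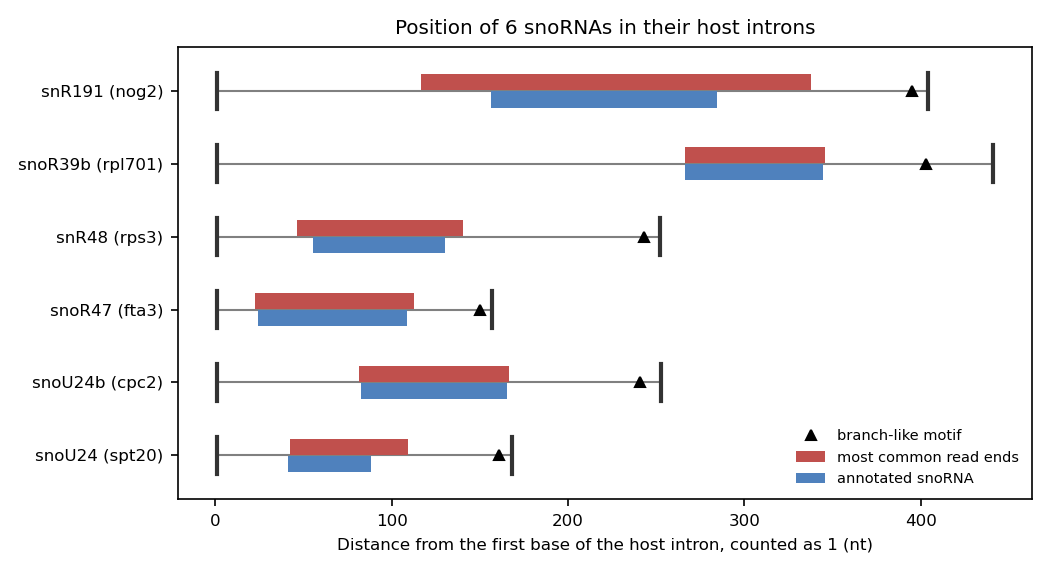
Position of each snoRNA in its host intron, in nt from the first intron base (horizontal axis), with 1 line per intron. Upper bars span the commonest read ends, lower bars the annotated snoRNA, triangles mark the A of the branch-like motif and thick ticks the intron ends. The upper bar reaches past the lower one at both ends in snR191, snR48, snoR47 and snoU24b, and at the 3′ end only in snoR39b and snoU24. The reach is 53, 21 and 10 nt at the 3′ end of snR191, snoU24 and snR48 and at most 4 nt in the other 3.

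The longer ends brought the box motifs inside. TGATG within 15 nt of the 5′ end together with CTGA within 15 nt of the 3′ end was present in the observed form of all 5 RNAs other than snR191, but in the annotated sequence of 3. The annotated snR48 holds neither within those limits, and the annotated snoU24 lacks CTGA. TGATG was preceded by 5 nt in snoR39b, snR48 and snoU24, by 6 nt in snoU24b and by 7 nt in snoR47. CTGA was followed by 3 nt in snoR39b, snR48, snoU24b and snoU24, and by 6 nt in snoR47. Only these letters on the transcribed strand were searched, and they do not overlap.

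For comparison, the observed form held both motifs in 11 of 33 other snoRNA genes with at least 50 reads (33.3%). These 11 had TGATG 2 to 6 nt (median 5) from the 5′ end and exactly 3 nt after CTGA. The 5 were grouped by these letters, with snR191 left out, whereas the 33 were not sorted by class. The shares therefore do not compare like sets. In windows of 85 nt, the median length of the 5, taken from introns with no annotated snoRNA, the pair of motifs occurred in 0.119% of 115272. snR191 had ACA in its last 10 nt, followed by 4 nt in the commonest form and by 3 nt in the 73 reads that ended 1 nt earlier. The annotated snR191 does not end that way. ACA in the last 10 nt was present in 13 of the 33 other snoRNA genes (39.4%) and in 11.4% of the intron windows, so by itself it is a weak mark.

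The distance of the 3′ end from the annotation set 3 of the 6 apart from the snoRNA genes outside introns. Outside introns here means outside introns of protein-coding genes, and genes that hold another snoRNA gene were left out. The commonest 3′ end lay more than 5 nt past the annotated one in 3 of the 6, and in 0 of 32 snoRNA genes outside introns with at least 50 reads. In 4 of those 32 it lay more than 5 nt short of the annotated end. Among these is snoR61, whose annotated entry of 653 nt is far longer than its commonest form of 81 nt. snoR39b, snoU24b and snoR47, at 1, 1 and 4 nt, lay within or next to the range of the 32, which reached 3 nt past the annotated end. Of the other 7 intronic snoRNAs, each with at least 10 reads, 1 ended more than 5 nt past the annotation, SPNCRNA.498 in ipa1, by 23 nt. The median distance of the 7 was 1 nt. snR191 and snR48 are also annotated under SPNCRNA entries. The other intronic snoRNAs have SPSNORNA entries, and among those only snoU24 ended more than 5 nt past the annotation. The median was 7 nt for the 6 described here and 0 nt for the 32. This is a description of how the annotation sits on the reads, and no test was made.

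**Figure D3:**
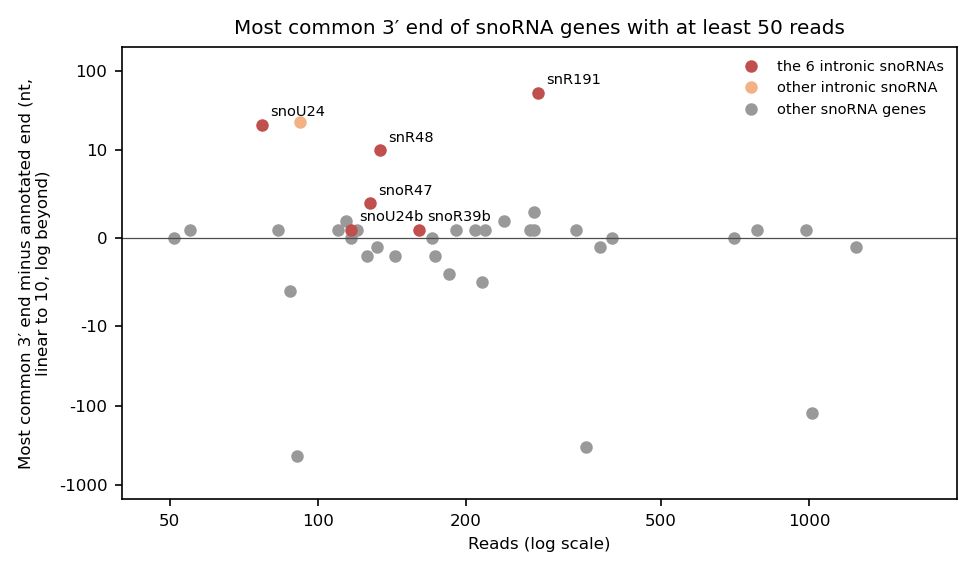
Distance from the annotated to the commonest 3′ end in nt (vertical axis, linear up to 10 and logarithmic beyond) against the number of reads (horizontal axis, logarithmic) for snoRNA genes with at least 50 reads that hold no other snoRNA gene. snR191, snoU24 and snR48 lie at 53, 21 and 10 nt, and no gene outside introns of protein-coding genes lies above 3 nt.

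Most reads met a narrow set of ends. The commonest 3′ end of its snoRNA was met, give or take 1 nt, by 771 of the 898 reads (85.9%, 95% Wilson interval 83.4 to 88.0). The commonest 5′ end was met in the same way by 724 (80.6%, 77.9 to 83.1). Both ends were met by 638 reads (71.0%, 68.0 to 73.9). With identical alignments counted once, 59.2% of 179 met the 3′ end and 45.3% the 5′ end. The share at the 3′ end was highest in snoU24b (94.9%, 89.3 to 97.6) and lowest in snoR47 (70.3%, 61.9 to 77.5). Between them, snoR39b had 90.7%, snoU24 89.6%, snR191 86.5% and snR48 83.6%. The intervals of these 4 overlapped one another. In 32 snoRNA genes outside introns of protein-coding genes the median share was 89.9% and the range 54.0 to 96.4%, which takes in all of the 6.

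The cDNA was copied from the 3′ side of the RNA, so the 5′ end of a read shows where copying stopped. That point can lie inside the RNA. At the 5′ end snoU24 was the most uniform, with 75 of 77 reads within 1 nt (97.4%, 91.0 to 99.3). snoR39b followed with 88.8%, then snR48 and snoU24b with 82.1% each, snR191 with 73.7% and snoR47 with 72.7%. This order depended on repeated alignments. With identical alignments counted once, the 5′ share was 84.6% in snoU24, 56.5% in snoR39b, 54.2% in snoR47, 53.3% in snoU24b, 41.9% in snR48 and 31.5% in snR191. The 5′ ends of snR191 were spread over 4 neighbouring bases: 81 reads began 41 nt before the annotated start, 99 at 40 nt, 27 at 39 nt and 32 at 38 nt. Its 3′ ends fell on fewer bases, with 169 reads at 53 nt and 73 at 52 nt past the annotated end. A further 38 of its 281 reads began more than 3 nt inside the commonest start.

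**Figure D4:**
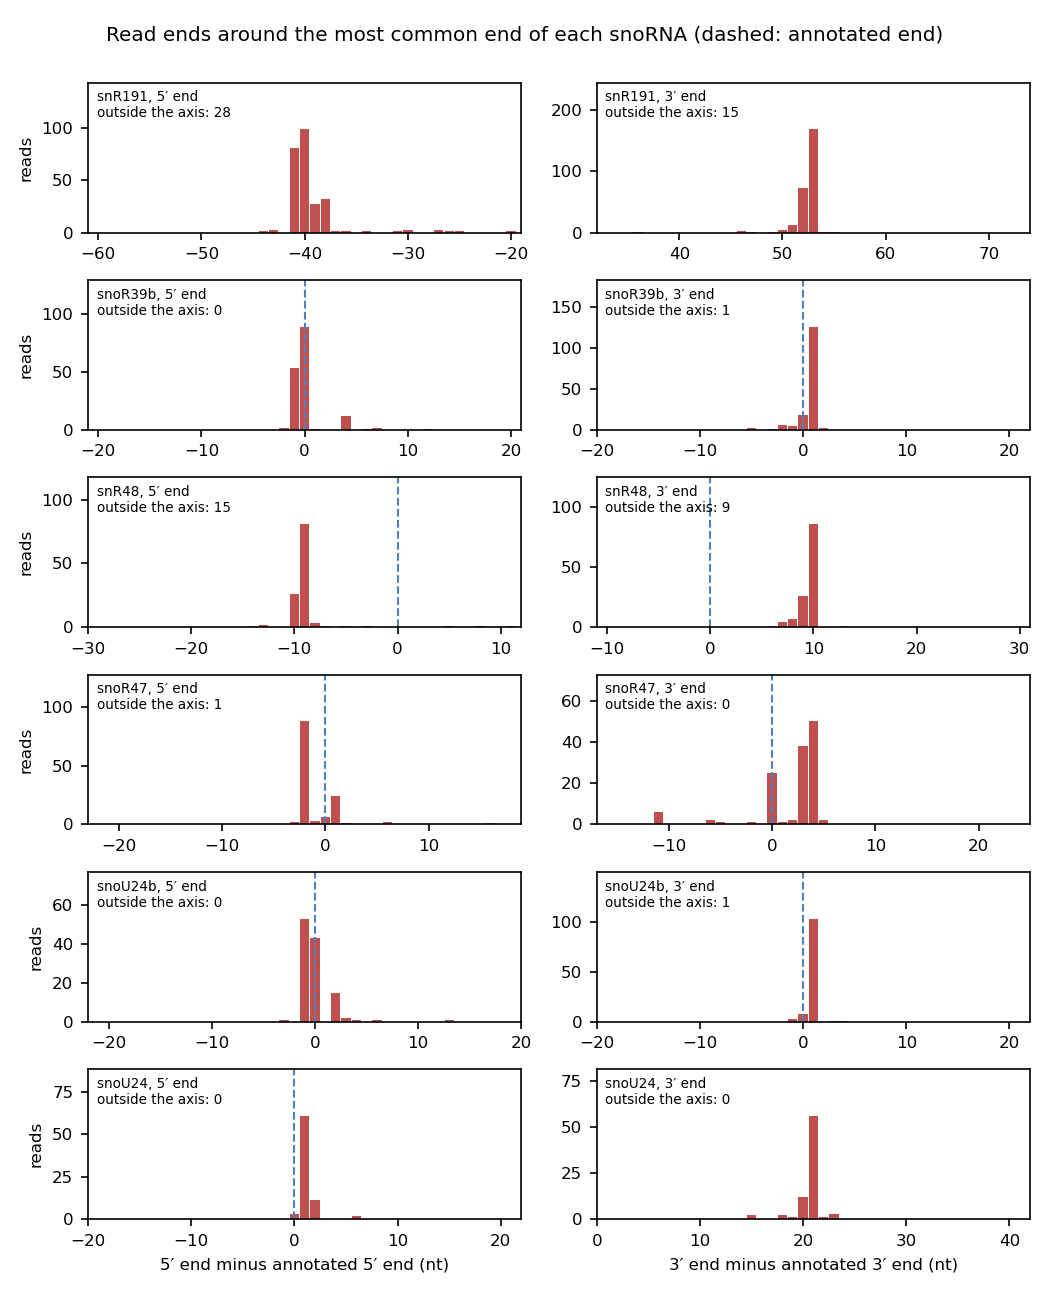
Number of reads (vertical axes) by distance in nt of the 5′ end (left panels) and 3′ end (right panels) from the annotated end, within 20 nt of the commonest end, for each of the 6 snoRNAs. Dashed lines mark the annotated ends where they fall in the panel. snoR47 has separate peaks at both ends, and the other 3′ panels have 1 dominant peak.

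snoR47 was present in separate forms. At the 5′ end 88 reads began 2 nt before the annotated start and 24 began 1 nt inside it, with 6 at the annotated base. At the 3′ end 50 and 38 reads ended 4 and 3 nt past the annotated end, 25 ended on it and 6 ended 11 nt before it. The ends went together. Of the 88 reads with the longer 5′ end, 70 ended 3 or 4 nt past the annotated end and 6 ended on it, whereas of the 24 reads with the shorter 5′ end 7 ended 3 or 4 nt past it and 16 ended on it.

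The commonest long form of snoR47 was thus 90 nt, with 7 nt before TGATG and 6 nt after CTGA, and the commonest short form was 83 nt, with 4 nt before and 2 nt after. The 16 reads of the short form were 7 from earlier and 9 from later movies. They are identical alignments. The 6 reads that ended 11 nt before the annotated end stop short of CTGA.

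Some of the RNAs share a stretch that matches ribosomal RNA. The longest exact complement to 18S or 28S rRNA was sought in each observed form. snoU24b held 15 nt (AATATTTGCTACTTC) complementary to positions 1478 to 1492 of 28S rRNA (counted from the 5′ end of the annotated gene SPRRNA.47), and snoU24 10 nt (AATATTTGCT) complementary to positions 1483 to 1492. The snoU24 stretch is thus contained in that of snoU24b and is also the longest run the pair has in common, while over the whole alignment 51.7% of columns were identical. snoR39b held 13 nt (ACCATCTTTCGGG) complementary to 28S positions 834 to 846, with 1 nt between it and the terminal CTGA. In the other 4 box C/D RNAs the run lay farther from the terminal CTGA, by 39 nt in snoU24, 44 nt in snoU24b, 50 nt in snoR47 and 55 nt in snR48. The snoRNA snoR39a, in an intron of rlp7, shares a run of 13 nt with snoR39b and 66.3% of aligned columns.

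snoR47 held 13 nt complementary to 28S positions 2305 to 2317, and snR48 12 nt complementary to positions 2885 to 2896. In snR191 the longest run was 10 nt. A run of 10 nt or more occurred in 34.2% of the intron windows of 85 nt, one of 12 nt or more in 3.03%, of 13 nt in 0.954% and of 15 nt in 0.194%. The runs of snR191 and snoU24 are therefore of a length that intron sequence often holds. A complement is a match of letters and not a measured target.

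Few molecules reached beyond the trimmed ends. With a margin of 3 nt, 17 of the 898 reads extended past the commonest 5′ end (11 reads), the 3′ end (13 reads) or both (7 reads). Of these 17, 12 belonged to snR48 and 3 to snR191. snoR39b and snoU24b had 1 each, and snoR47 and snoU24 had 0. None of the 898 reads ended past the last base of its intron, nor within 1 nt of it. If every read were a separate molecule, this would allow a share of up to 0.334% (3 reads). PCR copies were kept, so the true limit may be higher. It does not cover molecules longer than the longest alignment.

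The distance left to cover was short. From the commonest 3′ end to the last intron base it was 45 nt in snoR47, 59 nt in snoU24, 67 nt in snR191, 87 nt in snoU24b, 96 nt in snoR39b and 112 nt in snR48. From the first intron base to the commonest 5′ end it was 22 nt in snoR47, 42 nt in snoU24, 46 nt in snR48, 81 nt in snoU24b, 116 nt in snR191 and 266 nt in snoR39b. The longest alignment in the library was 356 nt. A molecule over the whole intron alone could thus have been seen for fta3 (157 nt), spt20 (168 nt), rps3 (252 nt) and cpc2 (253 nt). It could not have been for nog2 (404 nt) or rpl701 (441 nt). A molecule that also reached back to the annotated gene start would be longer. That start lies 49 nt before the intron in rps3. In nog2, fta3, cpc2 and spt20 it lies farther from the intron than the longest alignment, even with earlier introns removed. In rpl701, 266 nt of intron come on top of the exon. A read from the gene start to the snoRNA could thus have been seen in rps3 only.

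The 12 long molecules of snR48 fell into 3 kinds. A group of 5 reads began on the first or second base of the rps3 intron. Of these, 4 ended 9 nt before the last intron base and 1 ended 16 nt before it, giving lengths of 243, 243, 242, 242 and 235 nt. A further read that began 4 nt before the snR48 start also ended 9 nt before the last intron base. That base is the A at the fourth place of CTGAC, the last match to the branch point letters CTNAN between 5 and 60 nt from the intron end. The end of the rps3 intron reads, with the motif in capitals:
rps3 intron end: aagtaCTGACcaatttag

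The letters CTNAN, searched on the transcribed strand in that span, are present in 86.8% of introns with no annotated snoRNA, and the match shows no branch point by itself. The 5 reads that ended on that A were 3 distinct alignments, with 1 read in the earlier and 4 in the later movies. In the other 5 introns the motif was CTAAC 7 to 12 nt before the last base, or CTAAT 38 nt before it in rpl701. No read of their snoRNAs ended on its A. Introns with no annotated snoRNA held 38 reads wholly inside them, of which 7 began within 1 nt of the intron start and 0 ended on such an A.

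The second kind held upstream exon. A read that began 50 nt before the rps3 intron ran through snR48 without a gap and ended 29 nt before the last intron base. Another began 49 nt before the intron and ended on the commonest 3′ end of snR48, with the exon, the start of the intron and the snoRNA in 1 piece of 189 nt. Both began within 1 nt of the annotated start of rps3. They were the only reads of the 6 snoRNAs that began in an exon, 1 in the earlier and 1 in the later movies. In the other hosts a molecule from the gene start to the snoRNA would have exceeded the longest alignment.

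The third kind was extended on 1 side. The reads that began at or 1 nt before the snR48 start ended 77 and 75 nt past its commonest 3′ end. The remaining reads of this kind began 5 and 4 nt before the snR48 start and ended within 1 nt of its commonest 3′ end. In addition, a read that does not overlap the annotated snR48 began 1 nt before the last base of the commonest form and ended 16 nt before the last intron base, so it held the intron's remainder without the snoRNA.

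**Figure D5:**
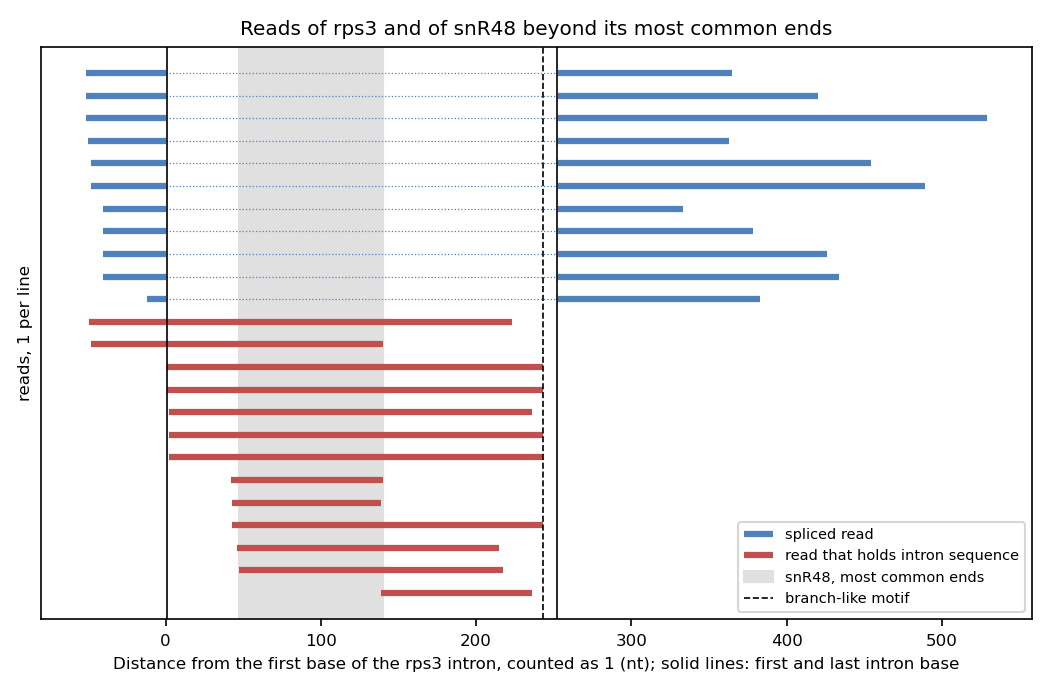
Single reads of rps3, 1 per line, against distance in nt from the first base of its intron (horizontal axis). Upper lines are the 11 spliced reads, with dotted lines for the gap, and lower lines are the 12 reads of snR48 beyond its commonest ends and the 1 read of intron sequence alone. The shaded band is snR48 and the dashed line the A of the motif, where 5 reads end.

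The extended reads of the other RNAs were single molecules. In snR191, 1 read ended 18 nt and another 30 nt before the last nog2 intron base, which is 49 and 37 nt past the commonest 3′ end, and 1 read began 4 nt upstream of the commonest start. In snoR39b 1 read ended 10 nt before the last rpl701 intron base, 86 nt past the commonest end, while it began 1 nt before the commonest start. In snoU24b 1 read ended 23 nt before the last cpc2 intron base, 64 nt past the commonest end. With single reads no rate can be given for these hosts.

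Spliced host molecules were seen for 2 of the 6 introns. Of 5228 annotated introns of protein-coding genes, 418 other than these had spanning reads, so an intron without such reads was common. Over rps3, 11 of 11 reads that spanned the intron from exon to exon were spliced (100%, 74.1 to 100), and over rpl701 it was 4 of 4 (100%, 51.0 to 100). The rps3 reads ended 81 to 277 nt (median 168) past the 3′ splice site and the rpl701 reads 137 to 213 nt (median 162) past it. In the 6 introns together 15 of 15 spanning reads were spliced (79.6 to 100), against 637 of 779 in other introns of protein-coding genes (81.8%, 78.9 to 84.3), with no test. With the 252 nt intron kept, each of the 11 rps3 molecules would have been longer than the longest alignment of 356 nt, and the rpl701 intron alone is longer than that. The 100% therefore cannot measure how completely these introns were removed.

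The other hosts gave no such reads. nog2 had 1 read outside snR191, which lay near the 5′ end of the gene. cpc2 had 12 reads, all of which ended before its second intron, where snoU24b lies, by 437 to 918 nt as measured from the last intron base. The nog2 read and all 12 cpc2 reads began farther from the snoRNA's intron than the longest alignment reaches, even with the first cpc2 intron removed. They could thus not have reached that intron, and their ends do not show whether it was spliced. Of these 12, 8 spanned the first cpc2 intron (197 nt), and all 8 were spliced. With that intron kept, each of the 8 would also have been longer than the longest alignment, so this count too was limited by read length. fta3 and spt20 had 0 reads in their exons, against 128 reads on snoR47 and 77 on snoU24. The snoRNA reads of these hosts came without any reads of the exons around them. The share of all genes with 0 exon reads was not counted, so this is not shown to be particular to these hosts.

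Across the hosts the order by snoRNA reads differed from the order by exon reads. snR48 and rps3 had 134 and 11 reads, snoU24b and cpc2 117 and 12, snoR39b and rpl701 161 and 5, and snR191 and nog2 281 and 1. Exon reads were counted without reads that overlap the snoRNA. The 2 reads that held both rps3 exon and snR48 are therefore not among the 11. With them rps3 would come before cpc2. Whether trimmed snoRNA was held on chromatin or carried over from the rest of the cell cannot be told from the reads, so the snoRNA counts do not measure transcription of the hosts.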

How the data were processed

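Long-read cDNA of nascent RNA from 1 S. pombe sample was used. The deposited file gives, for each consensus read, alignment start, end, strand and blocks; these other values carry no normalization by the authors. Per the labels' protocols the adaptor was ligated to RNA 3′ ends and cDNA was amplified by PCR. Per the submitters' processing notes cutadapt 1.8 was used and the build was sacCer3, which cannot hold S. pombe chromosomes. The aligner, its settings and the treatment of the adaptor's random bases are not given in the sources used here, and PCR copies were not removed. The file holds 16126 alignments of 16122 reads, median 157 nt. RefSeq ASM294v3 was compared with them: 0 ends lay beyond a chromosome, and all 329 distinct gaps equal to an annotated intron had GT-AG ends on the annotated strand.

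A read was assigned to a snoRNA by at least 1 aligned base on its strand. Ends within 1 nt of the commonest end were counted as equal. Reads with at least 1 nt on each side of an intron were called spliced when a gap matched it to 3 nt at each end, and unspliced when 1 block covered it. Intervals are 95% Wilson or exact Poisson. Python 3.11.15, SciPy 1.17.1, Biopython 1.88 and matplotlib 3.10.9 were used; end and splicing calls were tested on simulated data. All 6 members and their hosts are named. The members and lists were chosen with earlier results of these data known. Alternatives were distinct alignments, movies, overlap, tolerance, reference end, flank and gap match.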

Additional observations from a re-analysis of the deposited data

How the results depend on the processing

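The 898 reads became 179 when identical alignments were counted once, 405 in the earlier and 493 in the later movies. The share at the 3′ end, 85.9%, was 59.2% with identical alignments counted once, 65.7% with a tolerance of 0 nt, 92.0% with 3 nt and 32.4% against the annotated ends. The share at the 5′ end, 80.6%, was 45.3% with identical alignments counted once, 84.4% in the earlier and 77.5% in the later movies, 52.4% with 0 nt, 89.98% with 3 nt and 37.5% against the annotated ends. Counting identical alignments once removes real molecules as well as PCR copies where ends are fixed, so the true shares were not determined. It moved the commonest 5′ end of snR191 and the commonest 3′ ends of snoR47 and snoU24 by 1 nt each. The 0 reads past the 3′ splice site and the 100% spliced could hardly move. Most alternatives take subsets of the reads, read length limits which unspliced molecules could be seen, and the earlier movies held 2 spanning reads. They say nothing about stability. Of 148 values of single snoRNAs under alternatives, 62 moved beyond the counting interval or, for counts, by over 1.5 times. The 148 include the reads past the 3′ splice site and the spliced shares, none of which moved. The share that moved among the other values was thus higher. No paired analysis was possible because a single S. pombe sample was used. With 77 to 281 reads per snoRNA, a form seen 0 times could still make up 3.90 to 1.07% of its reads. These limits take each read as a separate molecule and may be too low where reads are PCR copies. They do not cover forms longer than the longest alignment.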

Other observations

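The other 7 intronic snoRNA genes held 221 reads, from 92 in SPNCRNA.498 (ipa1) and 35 in snoR54 (gua1) to 11 each in snoR58 (ade4) and snoZ15 (pfd1). Their commonest 5′ end was the annotated base in snoR39a, snoU18 and snoR38 and 1 nt before it in snoR54. The other 3 were farther off, with SPNCRNA.498 at 81 nt and snoZ15 at 61 nt before the annotated start and snoR58 at 24 nt inside it. In snoZ15 and snoR58 this end was poorly defined, since only 18.2% of the 11 reads of each lay within 1 nt of it. Their median read lengths, 103 and 77 nt, were close to the annotated 101 and 75 nt. In SPNCRNA.498 the share was 43.5% of 92 reads. None of the 221 reads ended past its intron or on the A of a branch-like motif. Precursor-like reads were present: 4 of the 11 reads of snoZ15 and 2 of the 11 of snoR58 began in the upstream exon, and 2 of the 33 reads of snoR39a began within 1 nt of the first base of the rlp7 intron. No read spanned any of these 7 introns from exon to exon.

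Of 14 genes of snoRNA maturation listed, 13 were found in the annotation and 8 had reads. The share of all genes with at least 1 read was not counted. These counts, including those of 0, therefore show nothing particular to these genes. The core proteins of box C/D particles had 4 reads in nop56, 3 in snu13 and 1 in nop58, and 0 in fib1, the methyltransferase. The box H/ACA proteins cbf5, gar1, nhp2 and nop10 had 1 read each. The exonuclease gene dhp1 had 1 read, while the debranching enzyme gene dbr1, the exosome genes rrp6 and dis3 and the RNase III gene pac1 had 0.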
